A study of Homo sapiens with 9 samples.

Results

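A set of 45 genes, of 59453 gene names counted, stood higher in MDA-MB-231 cells after 8 h of TEPA and close to the untreated level after 24 h. The genes were chosen by these measured values. From CPM (the raw count of a gene per 1000000 counts of its library), group means were taken, and a gene was selected where untreated cells held at least 1 CPM, TEPA at 8 h at least 2.2 times the untreated mean, and TEPA at 24 h between 0.7 and 1.4 times the untreated mean. Mitochondrially encoded genes, MALAT1, and names of the ZNF, LINC, SNHG and numbered antisense kinds were left out, which removed 7 of 52 genes. Of the gene names, 13106 reached the untreated minimum and 109 also reached the 8 h limit with the same names left out.

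MDA-MB-231 is an established human triple-negative breast cancer line, and RNA-Seq was performed on 3 groups of 3 replicates of it: untreated cells, cells given TEPA for 8 h and cells given TEPA for 24 h. TEPA is a polyamine that chelates copper, and the study's text expands the name as a different polyamine from the reagent it lists, so which of them was used is uncertain. Its concentration is 8 mM in the sample labels, 4 mM in the RNA sequencing methods, and 4 and 8 mM in the general treatment methods. A single untreated group served both times, so the 2 comparisons share their controls, and all cells were of 1 line grown in flasks. In bulk RNA, a smaller share of cells that express a gene and less RNA of it per cell cannot be told apart.

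Genes of this kind, high early and back near the starting level later, are called transient or pulse responders. Among them are textbook stress genes: inducible HSP70 chaperones are switched on by heat shock factors that bind paired GAA and TTC units in the promoter when proteins misfold. Transcripts can also accumulate because their introns are removed slowly and the incompletely spliced RNA is held in the nucleus, which is known as intron detention and is a feature of many genes of the splicing machinery. TFF1 encodes a small secreted trefoil peptide of mucous epithelia and is a classical oestrogen receptor target in luminal breast cancer.

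The DNA before the start of the 2 inducible HSP70 genes of the set is shown because it holds the known binding motif of the heat shock factors. Sequences are from RefSeq on GRCh38.p14, plus strand, 5′ to 3′, and are the 250 bases before the start of HSPA1A at chr6:31815293-31815542 and of HSPA1B at chr6:31827488-31827737; capitals mark the paired units.
HSPA1A: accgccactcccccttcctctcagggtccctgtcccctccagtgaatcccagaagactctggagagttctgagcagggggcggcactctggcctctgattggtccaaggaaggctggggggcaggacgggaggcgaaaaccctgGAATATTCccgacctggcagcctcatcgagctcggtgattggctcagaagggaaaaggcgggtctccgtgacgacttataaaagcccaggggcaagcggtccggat
HSPA1B: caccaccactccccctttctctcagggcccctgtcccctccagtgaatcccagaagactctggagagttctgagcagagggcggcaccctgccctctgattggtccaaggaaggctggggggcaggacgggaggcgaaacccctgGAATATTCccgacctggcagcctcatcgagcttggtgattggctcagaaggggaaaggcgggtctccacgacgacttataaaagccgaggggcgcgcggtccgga
The motif in capitals is GAANNTTC, read on either strand, and its first base lay 106 bases before the start of HSPA1A and 105 bases before that of HSPA1B. Aligned at the motif, 235 of 249 bases (94.4%) were identical. The 250 bases before the start hold this motif in 5.78% of 35116 RefSeq promoters. Promoter sequence was given for 24 of the 45 genes, which is too few to compare the set with other genes. Of the 24, 4 held the motif in these 250 bases, AKR1C1 and RSKR besides both HSP70 genes. The 24 genes have 30 promoters, and the RefSeq shares are counted by promoter. By promoter, 4 of the 30 held the motif (13.3%). The units in the opposite order, TTCNNGAA, were held by 2 of the 24, MIR222HG and PINLYP, and by 6.62% of the RefSeq promoters. By promoter, 2 of the 30 held this order (6.67%). Neither HSP70 gene held the units in this order. Further motifs were searched, and their shares are not given. For TFF1 no promoter sequence was given.

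Some transcripts of the set also carry microRNA hairpins. These are shown because a host transcript and its microRNAs are made from the same primary RNA, although the libraries, made with TruSeq stranded mRNA, did not measure mature microRNAs. Sequences are from RefSeq on GRCh38.p14, 5′ to 3′, with the seed (bases 2 to 8) in capitals; miR-221-3p and miR-222-3p lie in MIR222HG and share their seed, and miR-224-5p and miR-452-5p lie in GABRE.
hsa-miR-221-3p: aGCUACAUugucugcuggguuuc
hsa-miR-222-3p: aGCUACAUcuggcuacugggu
hsa-miR-224-5p: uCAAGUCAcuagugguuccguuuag
hsa-miR-452-5p: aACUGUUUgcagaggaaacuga
AMH hosts a further hairpin, that of miR-4321.

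Across the set, the ratio of the TEPA 8 h mean to the untreated mean had a median of 2.38 and ran from 2.21 to 4.93, where the median over all genes at or above the untreated minimum was 0.979. At 24 h the median ratio was 1.201, from 0.784 to 1.396, beside 1.03 over all those genes. The set thus sat low in its 8 h range, with 28 genes between 2.2 and 2.5 times untreated and 8 above 3 times. At 24 h, 35 genes had a mean above and 10 a mean below untreated.

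**Figure D1:**
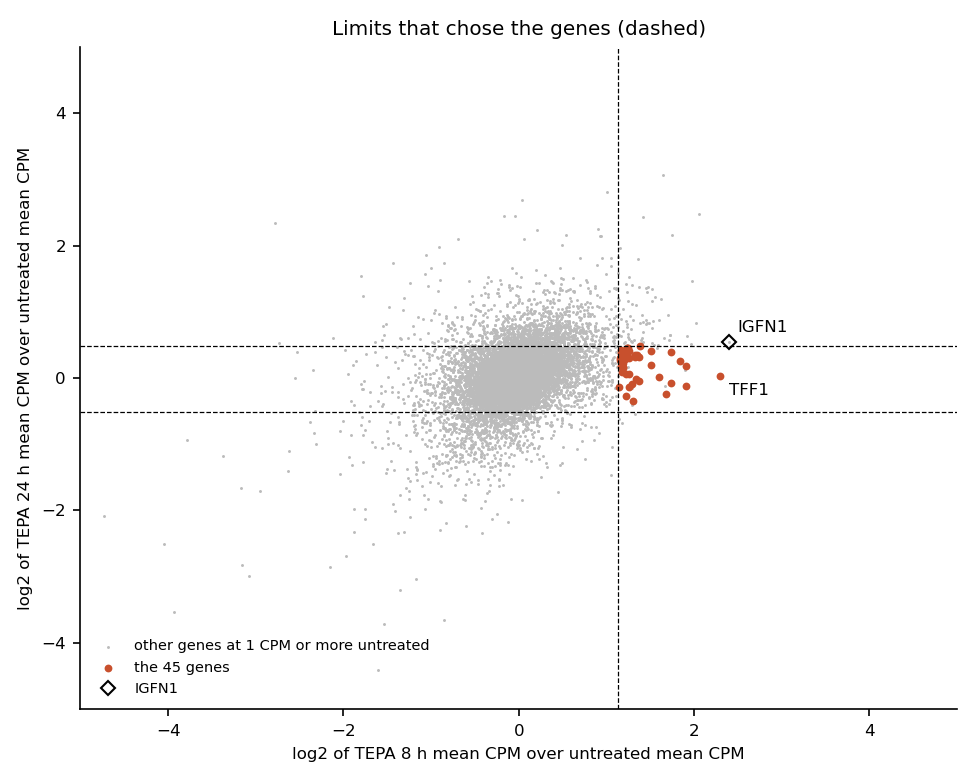
Each point is a gene with an untreated mean of at least 1 CPM, placed by log2 of its TEPA 8 h mean over the untreated mean (x) and of its TEPA 24 h mean over the untreated mean (y), with the limits dashed and 1 gene beyond the axes not drawn. The 45 genes (red) lie right of the 8 h limit and between the 24 h limits, TFF1 furthest right, and IGFN1 (open diamond) lies just above the upper 24 h limit.

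Most of the set was represented by few reads. The untreated mean was under 3 CPM in 28 genes and at or above 10 CPM in 8, with a median of 2.38 CPM against 30.7 CPM over all genes at or above the minimum. No gene was below 32 counts in an untreated library, and the highest 8 h count was 5581, of HSPA1B. Scatter between replicates was accordingly wide: the coefficient of variation of a gene's CPM had a median of 12.8% in untreated cells, 8.64% at 8 h and 8.41% at 24 h, beside 5.07%, 4.01% and 4.36% over all genes at or above the minimum, and counting error alone gives 10.1%, 6.38% and 9.45% for these genes.

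In all 45 genes, every TEPA 8 h library lay above every untreated library, as it did in 28.1% of the 16556 genes tested by edgeR's quasi-likelihood test. Every 24 h library lay below every 8 h library in all 45, against 26.2% of the genes tested. By adjusted p, 45 genes were higher at 8 h than untreated (25.2% of genes tested), 45 were lower at 24 h than at 8 h (28.8%), and at 24 h against untreated 8 were higher (25.7%) and 0 lower (26.8%). These contrasts chose the genes, so nothing is read from the counts. The closest approach was in MRPL20-DT, where the lowest 8 h library was 1.12 times the highest other library, and the widest gap was in TFF1, at 4.37 times.

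**Figure D2:**
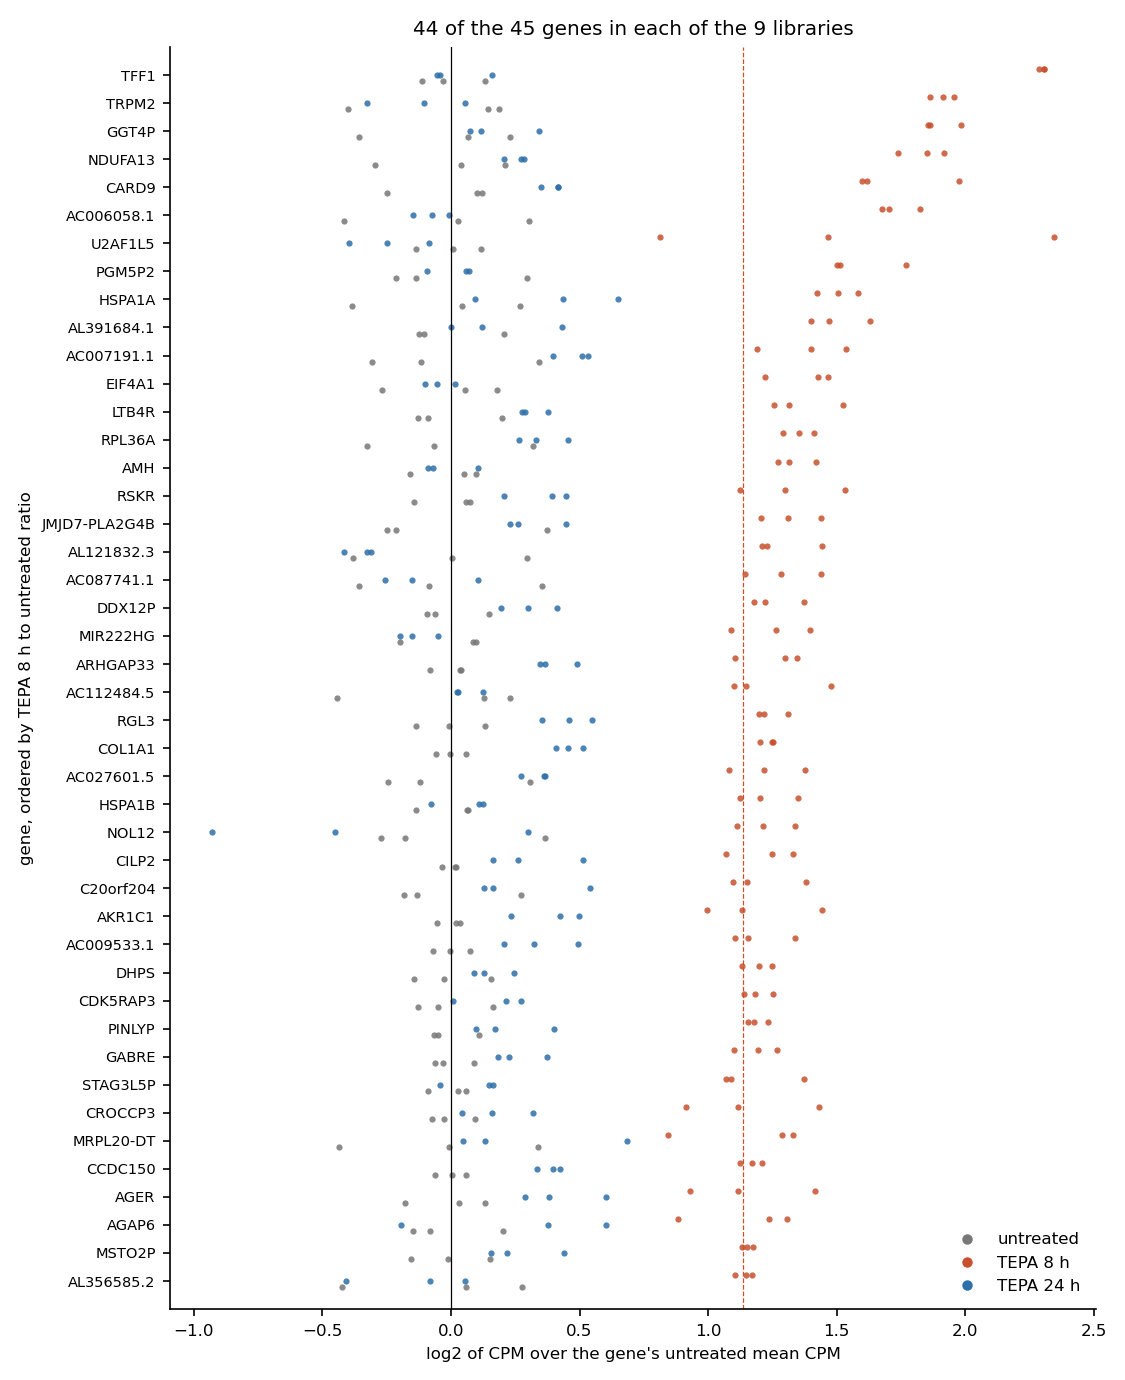
Rows are 44 of the 45 genes in order of their TEPA 8 h to untreated ratio, and points are single libraries, placed by log2 of CPM over the gene's untreated mean, with the 8 h limit dashed. The 8 h points stand apart from the other 6 in every row, and those of U2AF1L5 are the most spread.

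TFF1 had the highest ratio of the set. Its untreated libraries held 1.41, 1.33 and 1.58 CPM, the 8 h libraries 7.02, 7.13 and 7.12 CPM, and the 24 h libraries 1.398, 1.606 and 1.386 CPM. The 3 libraries at 8 h were almost identical, and the untreated and 24 h libraries overlapped. The group means were 1.44 ± 0.125, 7.09 ± 0.0599 and 1.46 ± 0.124 CPM (SD, n = 3), which is 4.93 times untreated at 8 h and 1.02 times at 24 h. With any single library left out, the 8 h ratio stayed between 4.75 and 5.18. TFF1 lies on chromosome 21, from 42362282 to 42366535 on the minus strand in GENCODE v44 on hg38, and has 3 exons.

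IGFN1, an immunoglobulin and fibronectin domain gene known from skeletal muscle, was given with TFF1 as a marker of the set but did not meet the rule. It held 26.6, 65.4 and 45.1 CPM untreated, 235, 224 and 265 CPM at 8 h, and 72.2, 65.0 and 62.6 CPM at 24 h. All 8 h libraries stood far above the rest, and untreated replicate 2 lay among the 24 h libraries. The 8 h ratio was 5.29, and the 24 h ratio of 1.46 is above the upper limit of 1.4. Its membership turned on single libraries: the 24 h ratio was 1.21 without untreated replicate 1, 1.86 without untreated replicate 2 1.396 without TEPA 24 h replicate 1 and also 1.396 on TMM-scaled library sizes, and IGFN1 met the rule in all of these but the one without untreated replicate 2.

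The 2 inducible HSP70 genes, whose proteins refold damaged proteins, were both in the set. HSPA1B held 48.9, 56.1 and 56.2 CPM untreated, 137, 124 and 117 CPM at 8 h, and 58.5, 50.8 and 57.9 CPM at 24 h. HSPA1A held 3.08, 4.15 and 4.86 CPM untreated, 11.4, 10.8 and 12.1 CPM at 8 h, and 5.45, 6.33 and 4.30 CPM at 24 h. The 8 h ratios were 2.34 for HSPA1B and 2.84 for HSPA1A, and at 24 h the libraries of both genes overlapped with the untreated ones. The 2 genes are near-identical copies, each of 1 exon, 9792 bases apart on chromosome 6, so the split of reads between them is uncertain.

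Other chaperone genes, chosen for their kinship after values had been seen, had small fold changes at 8 h. HSPA8, the constitutive HSP70, rose by a log2 fold change of 0.32 ± 0.05 (SE, edgeR adjusted p 0.000117) at 8 h and was lower than untreated at 24 h (-0.48 ± 0.05, adjusted p 1.5e-06). DNAJB1, the HSP40 partner of inducible HSP70, rose by 0.24 ± 0.03 (adjusted p 4.14e-05) and was at -0.38 ± 0.03 at 24 h (adjusted p 2.5e-07). The other chaperone genes looked at had 24 h values of the opposite sign, that of HSPH1 turning to -0.016 without untreated replicate 1. HSP90AA1, the stress-inducible HSP90, rose by 0.46 ± 0.06 at 8 h (adjusted p 1.07e-05) and was at 0.17 ± 0.06 at 24 h (adjusted p 0.0197; 0.0528 without untreated replicate 1 and 0.0745 without 24 h replicate 1). HSPH1, an HSP110 chaperone, rose by 0.35 ± 0.04 at 8 h (adjusted p 8.23e-06) and was at 0.03 ± 0.04 at 24 h (adjusted p 0.525). HSPA1L, the neighbour of HSPA1A in the same gene cluster, was at 0.06 ± 0.22 at 8 h (adjusted p 0.828). Its 24 h value was 0.59 ± 0.21 (adjusted p 0.0248; 0.0725 to 0.0873 without untreated replicate 1 or 3 or 24 h replicate 1 or 2).

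Receptors, channels and signalling proteins made up 9 of the genes, with 8 h ratios from 2.25 to 3.76. TRPM2, a calcium channel opened by oxidative stress, held 1.12, 1.68 and 1.63 CPM untreated, 5.55, 5.36 and 5.72 CPM at 8 h, and 1.18, 1.37 and 1.53 CPM at 24 h. LTB4R, the high-affinity receptor of leukotriene B4, held 10.2, 12.8 and 10.5 CPM untreated, 26.8, 27.9 and 32.2 CPM at 8 h, and 14.6, 13.6 and 13.7 CPM at 24 h. TRPM2 was back within its untreated range at 24 h, whereas each 24 h library of LTB4R was above each untreated one.

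CARD9, an adaptor of innate immune signalling, averaged 1.17 ± 0.160 CPM untreated, 3.91 ± 0.599 at 8 h and 1.54 ± 0.0415 at 24 h (SD, n = 3). AGER, the receptor for advanced glycation end products, held 1.54, 1.33 and 1.65 CPM untreated, 2.87, 4.03 and 3.27 CPM at 8 h, and 1.84, 2.29 and 1.96 CPM at 24 h. These genes are known mainly from leukocytes and lung, respectively, and here they were near the untreated minimum of the rule, with the pan-leukocyte marker PTPRC at or below 0.0670 CPM in each group mean. GABRE, a GABA-A receptor subunit, averaged 17.4 ± 0.969, 39.6 ± 2.32 and 20.8 ± 1.46 CPM in the same order. ARHGAP33, a GTPase-activating protein gene, had ratios of 2.38 at 8 h and 1.32 at 24 h, and the Ral exchange factor gene RGL3 of 2.37 and 1.37. The kinase gene RSKR had an 8 h ratio of 2.51.

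**Figure D3:**
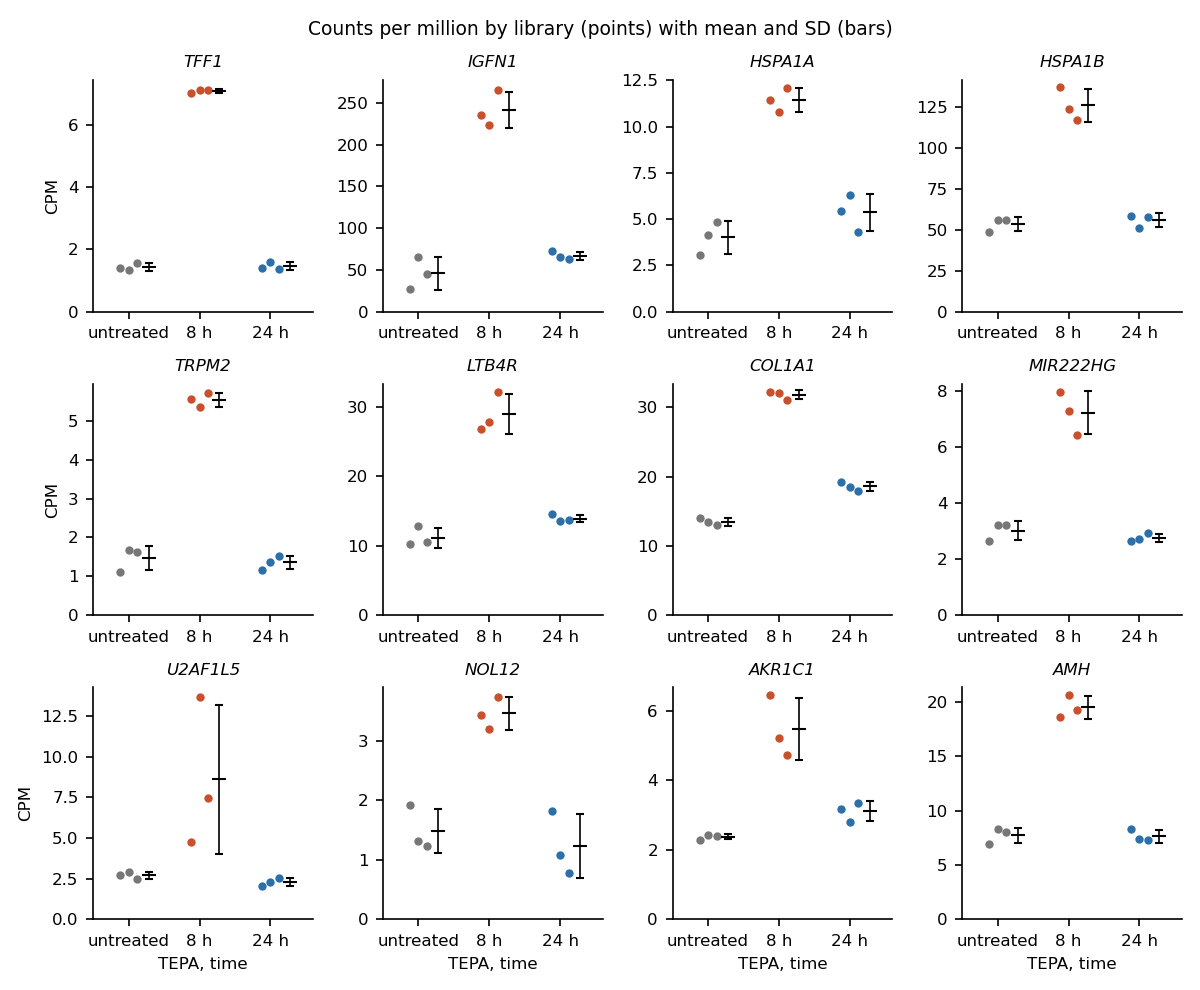
Panels show CPM of 11 genes of the set and of IGFN1 in each library (points) with the group mean and SD (bars, n = 3) for untreated cells and TEPA at 8 h and 24 h, each axis starting at 0. TFF1 has the tightest 8 h libraries, U2AF1L5 has 1 high 8 h library, and COL1A1 is the panel in which the 24 h libraries stand most clearly above the untreated ones.

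Secreted and matrix proteins made up 4 genes. COL1A1, the main chain of type I collagen, held 14.1, 13.5 and 13.0 CPM untreated, 32.2, 32.1 and 31.1 CPM at 8 h, and 19.3, 18.5 and 17.9 CPM at 24 h. Its replicates were close in each group, and its 24 h libraries all stood between the untreated and the 8 h ones. AMH, anti-Müllerian hormone of the TGF-β family, held 6.91, 8.26 and 7.99 CPM untreated, 18.6, 20.6 and 19.2 CPM at 8 h, and 8.31, 7.35 and 7.25 CPM at 24 h. The 24 h ratio of AMH was 0.989 and that of COL1A1 1.38. CILP2, a cartilage matrix protein gene, and PINLYP, a phospholipase inhibitor gene, had 8 h ratios of 2.33 and 2.28.

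In metabolism and translation, 5 genes met the rule. AKR1C1, an aldo-keto reductase that inactivates progesterone, held 2.28, 2.43 and 2.40 CPM untreated, 6.46, 5.21 and 4.73 CPM at 8 h, and 3.18, 2.79 and 3.35 CPM at 24 h. Its counts are uncertain, since it has close relatives in its family. In the order untreated, 8 h and 24 h, AKR1C3 averaged 22.8, 16.5 and 24.0 CPM, and AKR1C2 averaged 0.432, 0.486 and 0.452 CPM. EIF4A1, the RNA helicase of translation initiation, held 4.62, 6.30 and 5.78 CPM untreated, 15.4, 13.0 and 15.0 CPM at 8 h, and 5.634, 5.361 and 5.197 CPM at 24 h. NDUFA13, a subunit of respiratory complex I, averaged 1.73 ± 0.299, 6.18 ± 0.385 and 2.06 ± 0.0596 CPM (SD, n = 3). These 2 genes, RPL36A and DHPS are expressed in every cell. RPL36A, a ribosomal protein gene, had an 8 h ratio of 2.55. DHPS, which carries out the first step of hypusine synthesis on initiation factor eIF5A, had an 8 h ratio of 2.29. On the same strand, another annotated gene covers 47.4% of the exon bases of EIF4A1, 38.8% of DHPS, 21% of NDUFA13 and 8.4% of RPL36A. The counting settings given name no option for reads that fall on several genes, so the values of these 4 are uncertain and need not be those of the usual mRNA.

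Of the non-coding genes, MIR222HG, host of miR-221 and miR-222, held 2.63, 3.20 and 3.23 CPM untreated, 7.96, 7.26 and 6.43 CPM at 8 h, and 2.63, 2.72 and 2.92 CPM at 24 h. The entry MIR221, inside it, had 5, 10 and 4 counts untreated, 14, 19 and 18 at 8 h, and 9, 4 and 7 at 24 h. Both were back at the untreated level by 24 h, and reads of the hairpin cannot be told from reads of its host. The divergent transcript MRPL20-DT had an 8 h ratio of 2.25. A further 9 genes carry only clone names, with 8 h ratios from 2.21 to 3.33; among these AC006058.1 held 17.3, 28.5 and 23.5 CPM untreated, 75.2, 73.8 and 81.8 CPM at 8 h, and 22.9, 20.8 and 21.9 CPM at 24 h. After it by 8 h ratio came AL391684.1 (2.84), AC007191.1 (2.61), AL121832.3 (2.46) and AC087741.1 (2.45).

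Pseudogenes by name numbered 6: GGT4P at an 8 h ratio of 3.74, PGM5P2 at 3.03, DDX12P at 2.40, STAG3L5P at 2.27, CROCCP3 at 2.25 and MSTO2P at 2.22. Each has a close relative in the genome, so its counts are uncertain. U2AF1L5, a duplicate of the splicing factor gene U2AF1 that GENCODE v44 classes as an artifact, held 2.71, 2.92 and 2.45 CPM untreated, 4.74, 13.7 and 7.44 CPM at 8 h, and 2.05, 2.27 and 2.54 CPM at 24 h. Replicate 2 carried much of its 8 h mean: the ratio was 3.20 with all libraries and 2.26 without that replicate. Its coefficient of variation at 8 h, 53.3%, was the highest of the set.

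The other 6 genes were CDK5RAP3, NOL12, CCDC150, C20orf204, AGAP6 and JMJD7-PLA2G4B, with 8 h ratios from 2.22 to 2.501. CDK5RAP3, which takes part in the UFM1 protein modification pathway, averaged 11.9 ± 1.27 CPM untreated, 27.2 ± 1.09 at 8 h and 13.4 ± 1.25 at 24 h (SD, n = 3). NOL12, a nucleolar protein gene, was 1.82 CPM in the 24 h replicate 1 but 1.09 and 0.780 in the others, and its 24 h ratio of 0.829 was 0.629 without replicate 1, under the lower limit. JMJD7-PLA2G4B is a read-through of 2 neighbouring genes, of which PLA2G4B is counted apart.

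The rule held the 24 h ratio between its limits, so the 24 h values describe the set and nothing is read from them. In 15 of the 45 genes every 24 h library lay above every untreated library (34.3% of genes tested), and in 0 below (23.7%). The 8 genes with an adjusted p under 0.05 at 24 h were LTB4R, DDX12P, ARHGAP33, RGL3, COL1A1, AC009533.1, GABRE and CCDC150. All 8 had at least 5.64 CPM untreated, and their 24 h ratios ran from 1.201 to 1.376. Members nearest each limit are given as values only. Just inside the 8 h limit of 2.2 were AL356585.2 (2.21), MSTO2P (2.22) and AGAP6 (2.22), and just outside were DNASE1L2 (2.196), FLNC (2.19) and KIAA0895L (2.17). Inside the upper 24 h limit were AC007191.1 (1.396), COL1A1 (1.38) and RGL3 (1.37), and outside RHBDL1 (1.41), HSF4 (1.41) and LTB4R2 (1.42). Inside the lower 24 h limit were AL121832.3 (0.784), NOL12 (0.829) and U2AF1L5 (0.848), and outside GNB3 (0.683) and MIR17HG (0.625). At the untreated minimum, AGAP6 (1.0003 CPM) and AL356585.2 (1.07 CPM) were inside, and NOP2 (0.993 CPM), AL096865.1 (0.899 CPM) and AL034417.4 (0.8502 CPM) outside.

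Positions in GENCODE v44 were found for 36 of the 45 genes (80.0%), all but the 9 with clone names, and for 12550 other genes (96.1%) at or above the untreated minimum. The genes of the set spanned a median of 14131.5 bases against 32527 bases. The GC content of the longest annotated transcript of a gene had a median of 56.5% against 47.7%. Protein-coding genes made up 75.0% of the set against 92.3%, and unprocessed pseudogenes 8.33% against 0.16%. Chromosome 19 held 7 of the 36 (19.4%, against 6.96%), and chromosome 21 held 3, TFF1, TRPM2 and U2AF1L5 (8.33%, against 0.95%). The other genes include the ZNF, LINC, SNHG, antisense and mitochondrial names that were left out of the set. The sides are thus not alike in the names they admit.

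The genes of the set also lay close to other genes. Exons overlapped those of another gene on the same strand in 17 of the 36 (47.2%, against 17.9% of the others), over more than 20% of their bases in 10 (27.8%, against 4.2%). Besides EIF4A1, DHPS and NDUFA13, the 10 were JMJD7-PLA2G4B (62.8%), CARD9 (51.6%), AGAP6 (47.2%), HSPA1B (36.6%), CDK5RAP3 and STAG3L5P (30.6% each) and NOL12 (22.0%). Their values are uncertain for the same reason. A gene ended within 5000 bases upstream on the same strand in 14 (38.9%, against 18.9%). Of the exon bases of a gene, a median of 15.9% lay only in transcripts annotated as retaining an intron, against 4.1%; this share was 67.3% in RPL36A, 58.4% in CARD9, 54.2% in GABRE and 31.6% in COL1A1, and 0 in TFF1, TRPM2 and both HSP70 genes. Genes with any bases found only in such transcripts made up 61.1% of the set against 57.2%. These are descriptions of the annotation, and where along a gene the reads fell is not shown by counts. Here too the other genes include the names left out of the set. They were not matched for level: the untreated median was 2.38 CPM in the set and 30.7 CPM over all genes at or above the minimum.

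Upstream genes can be read beside the set because they were not chosen by the rule. Of the 14, 11 were tested: 7 rose and 1 fell at 8 h, the median log2 change being 0.24, where 25.2% of genes tested rose and 24.5% fell. At 24 h 4 rose and 2 fell, with a median of 0.05. YJEFN3, 667 bases upstream of CILP2, held 4.89, 6.23 and 5.36 CPM untreated, 19.6, 20.4 and 22.2 CPM at 8 h, and 8.55, 8.46 and 8.46 CPM at 24 h. It rose by 1.92 ± 0.09 on the log2 scale at 8 h (SE, edgeR adjusted p 5.08e-10) and missed the rule through its 24 h ratio of 1.55. SF3A2, a splicing factor gene that ends 654 bases before AMH, rose by 0.24 ± 0.04 (adjusted p 0.000231). LGALS1, upstream of NOL12, fell by 0.44 ± 0.05 (adjusted p 1.55e-06), in the direction opposite to NOL12. LTB4R2, whose exons overlap those of LTB4R, rose by 1.55 ± 0.12 (adjusted p 8.15e-08) and was still higher at 24 h (0.45 ± 0.13, adjusted p 0.00846; 0.0732 without 24 h replicate 1). These 4 were named after their values were seen.

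**Figure D4:**
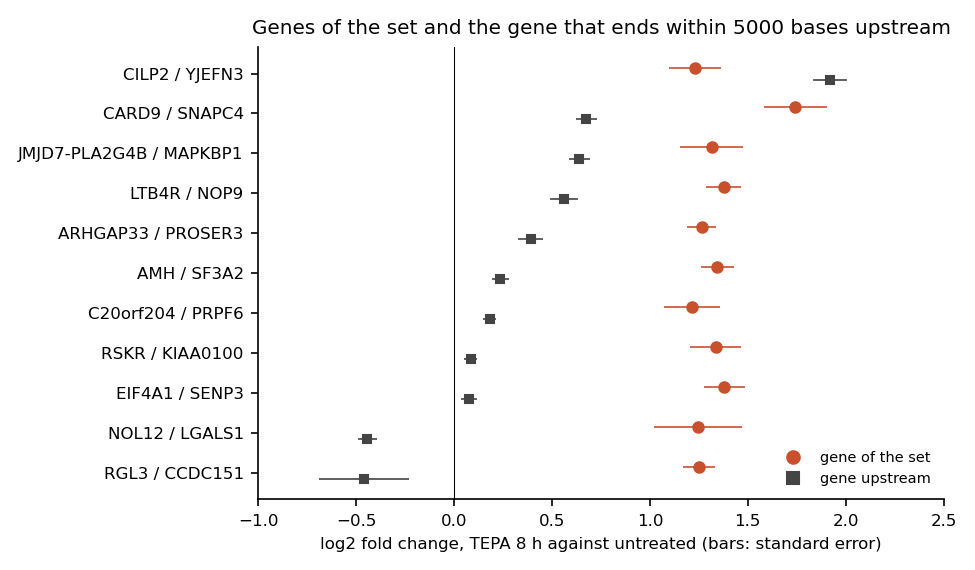
Rows are the 11 genes of the set with a tested gene ending within 5000 bases upstream on the same strand, and the x axis is the edgeR log2 fold change of TEPA 8 h against untreated, with standard errors as bars. Genes of the set (circles) lie above 1 throughout, and upstream genes (squares) run from -0.46 (CCDC151) to 1.92 (YJEFN3).

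Relatives of the markers are given from lists of related genes. On the list of trefoil factors and mucins, 7 genes besides TFF1 were tested: 0 rose and 5 fell at 8 h (median log2 change -0.97), and 0 rose and 4 fell at 24 h (median -0.58). MUC5AC fell by 1.82 ± 0.12 at 8 h (edgeR adjusted p 1.78e-08), MUC5B fell by 1.24 ± 0.15 (adjusted p 5.67e-06) and MUC2 fell by 3.13 ± 0.28 (adjusted p 2.63e-07). TFF2 was at 0.17 ± 0.23 (adjusted p 0.578) and TFF3 at -0.30 ± 0.21 (adjusted p 0.273) at 8 h. Among oestrogen receptor genes and targets, 20 besides TFF1 were tested, of which 3 rose and 6 fell at 8 h (median -0.08), and 6 rose and 7 fell at 24 h; over all genes tested, 25.2% rose and 24.5% fell at 8 h, and 25.7% rose and 26.8% fell at 24 h, so these counts are near the background. NRIP1, a corepressor of the receptor, fell by 1.07 ± 0.06 at 8 h (adjusted p 2.89e-09), and GATA3, a luminal transcription factor gene, was at 0.11 ± 0.07 (adjusted p 0.235). The receptor gene ESR1 itself was at or below 0.154 CPM in each group mean.

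Of the sarcomere and muscle genes, the relatives of IGFN1, 16 were tested, IGFN1 included. At 8 h 4 rose and 4 fell (median -0.02), beside 25.2% and 24.5% of all genes tested, and 2 rose and 4 fell at 24 h. IGFN1 is among the 4 that rose. It was given as a marker of the set, so its rise was known beforehand and adds nothing to the count. FLNC, the muscle filamin, rose by 1.14 ± 0.06 at 8 h (edgeR adjusted p 3.02e-09) and was at -0.03 ± 0.06 at 24 h (adjusted p 0.702). SPEG, a kinase of striated muscle, rose by 0.74 ± 0.05 at 8 h (adjusted p 9.08e-09) and by 0.35 ± 0.05 at 24 h (adjusted p 1.24e-05). TCAP, a titin-capping protein gene, rose by 0.91 ± 0.19 at 8 h (adjusted p 0.000902) and by 0.95 ± 0.19 at 24 h (adjusted p 0.000489). The genes that fell at 8 h were ANKRD1, a muscle ankyrin repeat protein gene, by 0.53 ± 0.04 (adjusted p 4.65e-08), MYOM3, a myomesin gene, by 0.58 ± 0.07 (adjusted p 7.93e-06), OBSL1, an obscurin-like gene, by 0.25 ± 0.06 (adjusted p 0.00188) and SYNPO2, an actin-binding protein gene, by 1.11 ± 0.43 (adjusted p 0.0429). The call of SYNPO2 was lost with the replicate block (adjusted p 0.0651) and in the fit of only the 2 groups compared (adjusted p 0.0585). It was also lost without untreated replicate 2 or 3 or 8 h replicate 1 or 3 (0.0551 to 0.168). The log2 change was -0.62 without 8 h replicate 1.

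Classical early and damage responses were covered by 2 lists. They are to be read beside the 25.2% and 24.5% of all genes that rose and fell at 8 h, and 25.7% and 26.8% at 24 h. Of 29 immediate early genes 6 rose and 11 fell at 8 h (median -0.11), and 6 rose and 9 fell at 24 h. Among the 11 that fell, DUSP4, a phosphatase gene of MAP kinase feedback, fell by 0.85 ± 0.05 at 8 h (edgeR adjusted p 9.1e-09). Of 24 p53 targets 7 rose and 6 fell at 8 h (median 0.01), and 11 rose and 6 fell at 24 h. Among the 6 that fell at 8 h was GDF15, a stress cytokine gene, by 1.86 ± 0.14 (adjusted p 6.66e-08). No gene of either list belongs to the set.

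On the list drawn up for transcripts with detained introns, most rose at 8 h. Of 30 tested, none of them in the set, 23 rose and 4 fell at 8 h, the median log2 change being 0.52, where the median over all genes was -0.001. At 24 h 12 rose and 8 fell (median 0.12), and from 8 h to 24 h 1 rose and 28 fell (median -0.36), where 26% of genes tested rose and 28.8% fell. DDX39B, an mRNA export helicase gene, rose by 1.43 ± 0.05 at 8 h (edgeR adjusted p 1.35e-10), PABPC1L, a poly(A)-binding protein gene, by 1.52 ± 0.07 (adjusted p 5.08e-10) and SRRM2, a spliceosome scaffold gene, by 0.83 ± 0.07 (adjusted p 1.36e-07). The nuclear RNA NEAT1 is counted in the list but is not itself known for a detained intron. It rose by 0.84 ± 0.07 at 8 h (adjusted p 2.8e-07) and fell by 0.80 ± 0.08 against untreated at 24 h (adjusted p 4.61e-07). The summed level of the list was 3017, 3266 and 3150 CPM untreated, 3853, 3817 and 3891 CPM at 8 h, and 3177, 3073 and 3185 CPM at 24 h. The 8 h libraries of this sum stood above all others; its part in the levels of the set was not tested.

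**Figure D5:**
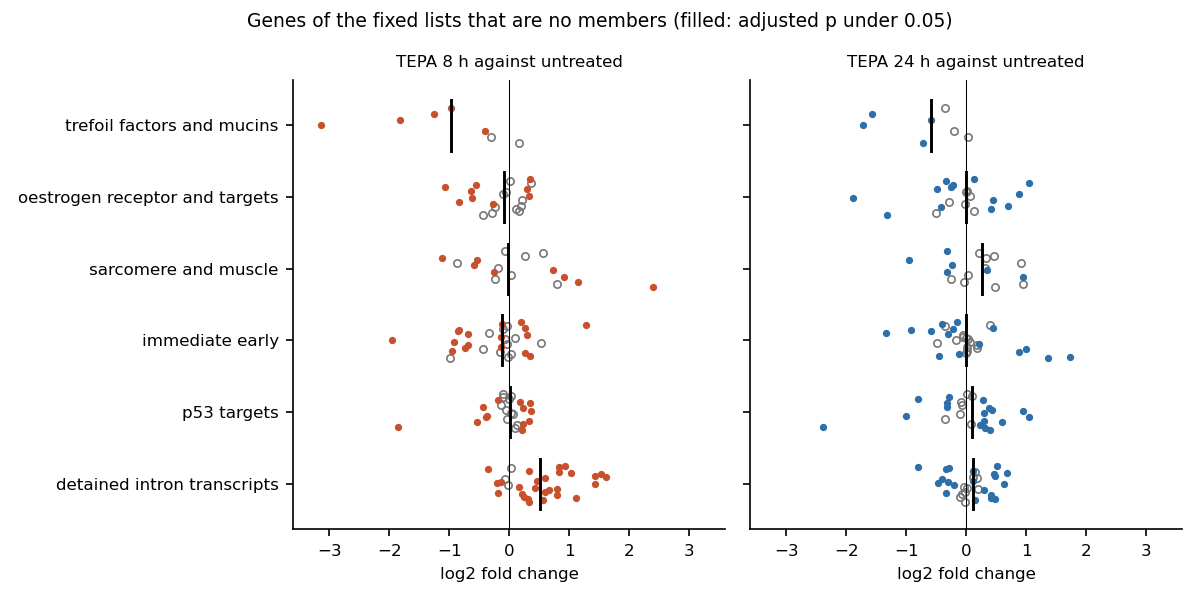
Points are single genes of the 6 lists, without genes of the set, placed by edgeR log2 fold change of TEPA 8 h (left) and TEPA 24 h (right) against untreated; filled points have an adjusted p under 0.05 and black bars are list medians. The detained intron list lies to the right at 8 h (median 0.52), and the trefoil factors and mucins lie to the left at both times (medians -0.97 and -0.58).

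Library totals ran from 34633755 to 49342659 counts. Mitochondrially encoded genes took 3.61% to 4.02% of the counts at 8 h, 1.79% to 2.91% in untreated cells and 1.89% to 2.02% at 24 h; with these genes left out of the totals, all 45 genes met the rule, among 50 in all. Untreated replicate 1 was the lowest untreated library in 28 of the 45 genes, against 35.6% of all genes at or above the minimum, and replicate 2 was the highest in 28, against 30.6%; the median 8 h ratio of the set was 2.34 without replicate 1 and 2.57 without replicate 2. Of the line's markers, VIM was at 3490 to 4300 CPM in the group means, PGR was 0 in every library, and KRT5 and PTPRC were at or below 0.0670 CPM. Not all markers fixed as near absent in this line were so: ERBB2 was at 80.5 CPM untreated, and PECAM1 and CDH1 were at 8.38 and 3.29 CPM at 24 h.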

How the data were processed

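RNA-Seq libraries of MDA-MB-231 cells (untreated, TEPA 8 h, TEPA 24 h, 3 replicates each; 34633755 to 49342659 counts) were analysed. FastQC and HISAT2 (alignment to hg38) were used by the authors, who deposited raw counts per gene name over exons from featureCounts, strand used, versions not given in the sources used here. Their methods name DESeq2 for testing. Here CPM was computed from column totals, and edgeR 4.0.16 (R 4.3.3; filterByExpr, minimum count 10, TMM factors from 0.978 to 1.039) fitted all 9 libraries in one quasi-likelihood model on 16556 genes, with Benjamini-Hochberg adjustment over all of them; a standard error is |log2 fold change| / √F. The procedure was tested on simulated data. Nothing states that replicates were separate cultures, so p-values measure only the spread between these libraries. Depth sets the counting error and limits low genes most.

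The set, the gene lists and the markers were chosen with earlier results of these data known. The genes named are the 2 given markers, the 20 members highest by 8 h ratio, the 5 highest untreated, those nearest each limit, and described genes of the lists; other members were named in groups by known role. Role groups, neighbours, chaperones, the relatives of AKR1C1 and the 5000-base limit were chosen after values were seen. The values of 1 member are not reported here. Positions are from GENCODE v44; the authors counted on Ensembl 103, and near-identical or overlapping genes are uncertain. Alternatives were DESeq2 1.42.0, RLE factors, no filter, a 2-group fit, a replicate block, other limits and leaving out each library.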

Additional observations from a re-analysis of the deposited data

Results flagged for a closer look

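Genes outside the set that are named with a test were looked at again where the log2 fold change at 24 h differed from that at 8 h by edgeR's test of 24 h against 8 h (adjusted p under 0.05); both times share the untreated libraries, but this test does not use them as its reference. Values are the log2 difference of TEPA 24 h minus TEPA 8 h. Lower at 24 h were NEAT1 (-1.64), YJEFN3 (-1.36), FLNC (-1.18), LTB4R2 (-1.10), PABPC1L (-1.05), TFF2 (-0.88), HSPA8 (-0.80), DDX39B (-0.80), SRRM2 (-0.67), DNAJB1 (-0.61), GDF15 (-0.53), ANKRD1 (-0.42), SF3A2 (-0.42), SPEG (-0.39), HSPH1 (-0.31) and HSP90AA1 (-0.28). Higher at 24 h were SYNPO2 (1.445), MUC2 (1.41), MUC5AC (1.24), NRIP1 (0.82), HSPA1L (0.53), LGALS1 (0.39), MYOM3 (0.34), GATA3 (0.30) and DUSP4 (0.27). In NEAT1, HSPA8, DNAJB1 and SF3A2, the fold change against untreated was positive at 8 h and negative at 24 h, with an adjusted p under 0.05 at each time.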

How the results depend on the processing

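The size of the set depended on the limits. It held 70 genes with an 8 h limit of 2 times and 17 with 2.5 times, 21 with a 24 h band of 0.8 to 1.2 and 88 with 0.5 to 2, and 76 with an untreated minimum of 0.5 CPM and 26 with 2 CPM. It held 57 genes on TMM-scaled library sizes, which included all 45. With each library left out in turn, it held 40 to 49 genes; 23 of the 45 met the rule whichever library was left out, and the fewest, 34, without untreated replicate 2. The median 8 h ratio of the 45 genes ran from 2.34 to 2.57 with a library left out, the highest without untreated replicate 2.

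Counts of genes with an adjusted p under 0.05 stayed within 1.5 times of the main 8216 (8 h), 8688 (24 h) and 9079 (24 h against 8 h) under every alternative run, and were lowest by leaving out a library (7138, 7517 and 8060). Equal replicate numbers did not pair the libraries (correlations from -0.08 to 0.038), and with the replicate block 7779, 8355 and 8758 genes were called. Of the 957 alternative values of single named genes, 917 kept their direction and their side of the threshold. Changes of sign were seen only in values with no call, without 1 library each: TFF3 at 8 h (0.016 without untreated replicate 1; range -0.50 to 0.016) and at 24 h (-0.17 and -0.060 without untreated replicates 2 and 3, and -0.054 without 24 h replicate 2; range -0.17 to 0.34), FLNC at 24 h (0.049 without untreated replicate 2 and 0.0013 without 24 h replicate 3; range -0.13 to 0.049), HSPA1L at 8 h (-0.040 without untreated replicate 1 and -0.12 without 8 h replicate 2; range -0.12 to 0.23), HSPH1 at 24 h (-0.016 without untreated replicate 1; range -0.016 to 0.061) and TCAP at 24 h against 8 h (-0.018 and -0.084 without replicate 1 of 8 h or of 24 h; range -0.084 to 0.13). TFF2 at 24 h lost its call without untreated replicate 1 (-0.42) and without 24 h replicate 1 or 3 (-0.70 and -0.69), and LTB4R2 (0.31) and MYOM3 (-0.20) at 24 h without 24 h replicate 1. HSPA1L and HSP90AA1 at 24 h and SYNPO2 at 8 h lost theirs without single libraries, and HSPA1L between the times also by DESeq2 (0.54). SYNPO2 at 8 h also lost its call with the replicate block and in the 2-group fit. SRRM2 and FLNC at 24 h and MUC5B between the times gained a call under some alternatives. The causes were not tested.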
